A study of Homo sapiens with 6 samples.

Results

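The 9 genes described here encode the regulatory proteins of the striated muscle thin filament: the troponin T genes TNNT1 and TNNT2, the troponin I genes TNNI1 and TNNI3, the troponin C gene TNNC1, and the tropomyosin genes TPM1, TPM2, TPM3 and TPM4. They were taken by symbol from a table of 35793 genes, and all 9 were present and passed the filter on low values (a mean of at least 10 normalized counts). RNA was measured in cardiomyocytes on day 15 of their differentiation from human induced pluripotent stem cells. The wild-type group was WTC11, an established stem cell line, and the other group was a WTC11 derivative with both copies of STK25, a serine/threonine kinase gene, disrupted by CRISPR/Cas9. Each genotype gave 3 libraries described as biological replicates, and no treatment was applied to either. The labels do not say whether the knockout was 1 clone or whether the replicates were separate differentiations. The edit and any other difference between the groups cannot be told apart.

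Tropomyosin is a coiled coil that runs along the actin filament and blocks myosin at rest. Troponin C binds calcium, troponin I holds the filament in its inhibited state, and troponin T ties the complex to tropomyosin. The developing heart uses TNNI1, the slow skeletal form, and replaces it with the cardiac form TNNI3 as it matures. Each tropomyosin gene makes several muscle and non-muscle forms from alternative starts and exons, and gene totals do not separate them.

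Libraries held from 22443904 to 53224112 reads assigned to genes, a 2.37-fold range. STK25 itself, the check of the labels, was at 8119 ± 1168 normalized counts in the wild type and 3720 ± 251 in the knockout (SD, n = 3 each; limma adjusted p = 0.00903, and 0.0611 without wild-type replicate 1). The cells carried the RNA of cardiomyocytes: 9 cardiomyocyte markers had a geometric mean between 12566 and 16029 normalized counts in wild-type libraries and between 19364 and 23189 in knockout libraries. Of 10 skeletal muscle markers, MYOD1, PAX7, MYF5 and MYH1 had no read in any library, while CKM, muscle creatine kinase, which heart muscle also makes, was at 25506 ± 490 and 108307 ± 2775 normalized counts in wild type and knockout, MYH3 at 40.4 ± 16.1 and 1375 ± 475, and MYH2 at 36.7 ± 18.4 and 0.847 ± 1.47 (SD, n = 3 each). Across all genes, 1982 of the 15536 tested passed an adjusted p of 0.05 (12.8%), 5.97% higher and 6.79% lower in the knockout, with limma on log2(normalized count + 1) and Benjamini-Hochberg adjustment over all genes. In bulk RNA, fewer cells of a type and less RNA per cell cannot be told apart.

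The tropomyosin genes TPM1, TPM2 and TPM4 were higher in the knockout beyond the spread between replicates, and no troponin gene passed the test. Thus 3 of the 9 genes passed, against a background of 12.8% of all genes. On the reads, edgeR passed the same 3 genes (background 12.0%) and DESeq2 passed 7, all but TNNT2 and TNNI1 (background 20.7%). The fitted changes were positive for 7 of the 9 genes, with a median log2 fold change of 0.79 beside 0.01 for all genes tested. For 7 genes the genotypes did not overlap, which held for 33.4% of all genes. In 6 of these the knockout lay above the wild type, and in TNNT1 below (16.2% and 17.2% of all genes).

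**Figure D1:**
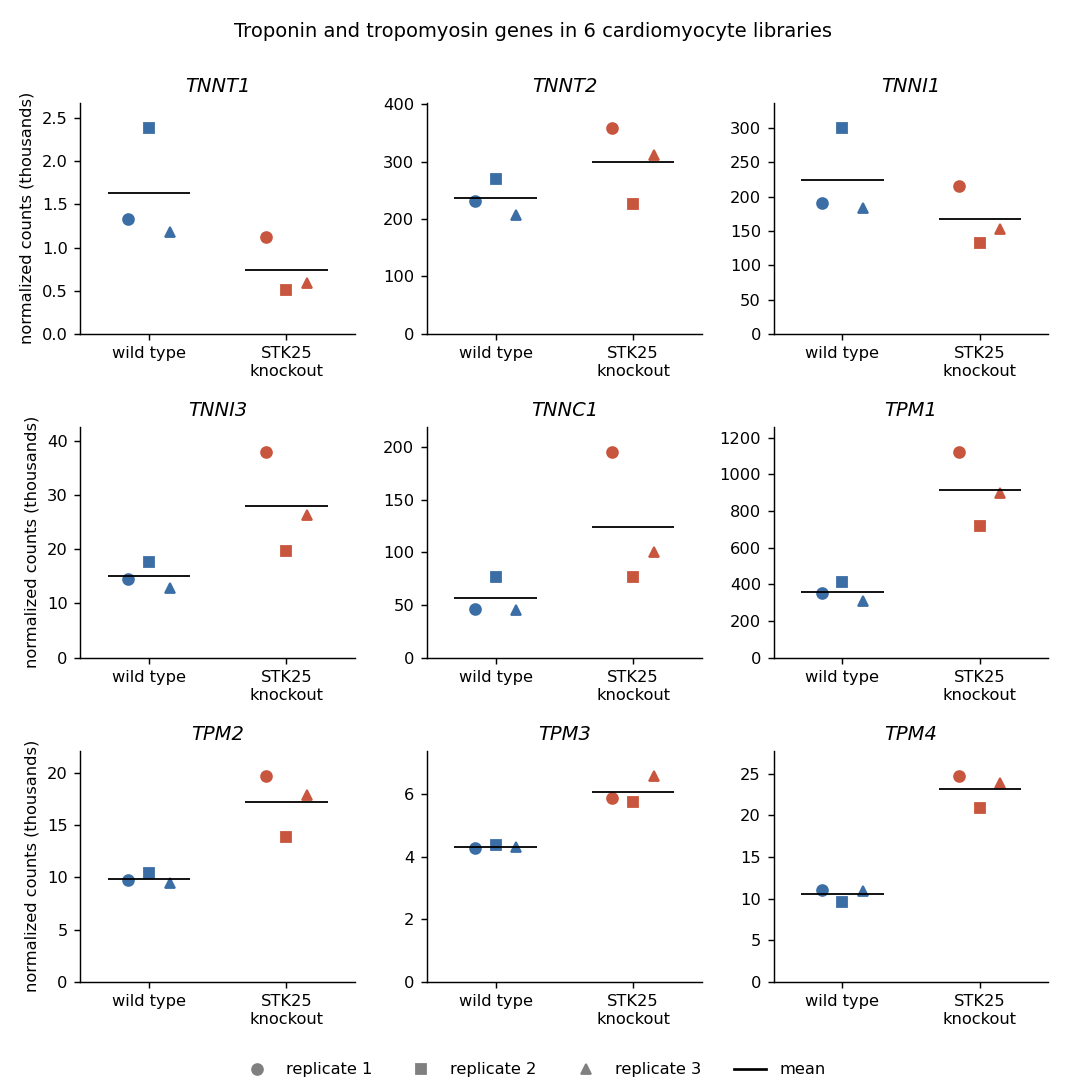
Normalized counts divided by 1000 (each vertical axis from 0) of the 9 genes in each library, with wild type in blue, STK25 knockout in red, symbols for the replicate number and a line at each mean. The genotypes overlap for TNNT2 and TNNI1 only, and all 3 knockout libraries lie above the wild type for TPM1, TPM2, TPM3, TPM4, TNNI3 and, by a narrow edge, TNNC1.

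TPM1, the main tropomyosin gene of heart muscle, had the third highest normalized count of all genes in every library, without regard to length. Its gene lies on chromosome 15 from 63042632 to 63071915 (plus strand, GENCODE 29 on GRCh38). TPM1 and TPM4 had the largest fitted changes among the 3 that passed, and TNNI3 is the gene by which troponin I matures. The RefSeq stretch before a start site of each is therefore shown, cut to its longest part free of the gene's exons in GENCODE. For TPM4 this cut both ends and left bases -231 to -32 from the start site. Capitals mark matches to any of 5 motifs searched on both strands: the GATA motif (AGATAA), the MCAT motif (CATTCC), the TATA motif (TATAAA), and the CArG and MEF2 motifs. The TPM1 stretch is chr15:63048239-63048438 (plus strand), the TPM4 stretch chr19:16067307-16067506 (plus strand) and the TNNI3 stretch chr19:55157774-55157982 (minus strand), all in GRCh38.p14. The first 2 lie in introns of the gene as GENCODE draws it, and the TNNI3 stretch directly upstream of the gene. GENCODE 29 gives the coding transcripts of TPM1 16 different starts and those of TPM4 6. The TPM1 and TPM4 stretches thus stand before an internal start, and sequence before the other starts is not shown.
TPM1: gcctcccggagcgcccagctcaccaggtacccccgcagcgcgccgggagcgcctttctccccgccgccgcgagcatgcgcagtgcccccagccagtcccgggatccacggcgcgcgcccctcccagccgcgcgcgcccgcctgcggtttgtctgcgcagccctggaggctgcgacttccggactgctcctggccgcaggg
TPM4: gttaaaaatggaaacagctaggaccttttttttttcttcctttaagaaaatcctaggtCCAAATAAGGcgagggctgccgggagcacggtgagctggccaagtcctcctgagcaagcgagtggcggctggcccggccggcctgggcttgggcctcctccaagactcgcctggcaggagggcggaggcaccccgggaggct
TNNI3: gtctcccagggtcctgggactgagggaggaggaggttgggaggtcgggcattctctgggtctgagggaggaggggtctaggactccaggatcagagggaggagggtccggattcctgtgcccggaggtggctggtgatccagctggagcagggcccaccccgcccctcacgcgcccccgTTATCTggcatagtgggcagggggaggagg

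The capitals in the TPM4 stretch are a CArG box, the sequence bound by serum response factor. They lie at bases -173 to -164 from the start site of window 1 of the 3 listed for TPM4. Windows 2 and 3 of TPM4 held no match to the 5 motifs. Of 35116 RefSeq windows of 250 bases before a start site, 1.16% held a CArG match. The TNNI3 stretch holds a GATA match on the opposite strand at -71 to -66, and a further one at -7 to -2 lies in the part not shown. The GATA motif was found in 9.17% of all such windows, the MCAT motif in 11.9%, the TATA motif in 10.7% and the MEF2 motif in 2.80%. The TPM1 window had no match to the 5 motifs, which says only that these letters are not in that window. Windows were listed for 7 of the 9 genes, 11 windows in all. Beyond those shown, TNNT2 had a GATA match at -225 to -220 and an MCAT match at -81 to -76, TNNT1 a TATA match at -29 to -24, and TPM3 a GATA match at -9 to -4 in 1 of its windows. A match is a description of the letters, not of binding.

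Normalized counts of TPM1 were 352101, 415499 and 309357 in wild-type replicates 1, 2 and 3 and 1124939, 717041 and 900297 in knockout replicates 1, 2 and 3. Every knockout library was above every wild-type library, the lowest knockout value being 1.73 times the highest wild-type value. TPM1 alone took 1.00% ± 0.08 of all reads in the wild type and 2.09% ± 0.22 in the knockout (SD, n = 3 each). The fitted log2 fold change was 1.33, SE 0.35 (95% interval 0.51 to 2.16, limma adjusted p = 0.0472), a 2.52-fold difference. edgeR's quasi-likelihood test on the reads gave an adjusted p of 0.0156. The limma call was lost without wild-type replicate 1, 2 or 3 or knockout replicate 2 or 3, with adjusted p-values from 0.0673 to 0.215, while the log2 fold change stayed at 1.17 or more.

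TPM4 encodes a tropomyosin used mainly in the cytoskeleton of non-muscle cells. Its wild-type values were 11013, 9637 and 10884 normalized counts and its knockout values 24803, 20954 and 23896. The replicates of TPM4 lay close together, with an SD of 7.23% of the mean in the wild type and 8.67% in the knockout, and the genotypes were far apart beside that spread. The fitted log2 fold change was 1.14, SE 0.18 (95% interval 0.72 to 1.57, limma adjusted p = 0.00717). Dropping any single library kept TPM4 past the threshold, its limma adjusted p lying between 0.00973 and 0.0470. The gene lies on chromosome 19 from 16067021 to 16103005.

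TPM2, the beta tropomyosin of skeletal and smooth muscle, lies on chromosome 9 from 35681992 to 35690121. It had 9764, 10427 and 9454 normalized counts in the wild type and 19775, 13926 and 17912 in the knockout. The wild-type libraries were nearly alike and knockout replicate 2 was the nearest to them. The fitted log2 fold change was 0.79, SE 0.20 (95% interval 0.32 to 1.25, limma adjusted p = 0.0413). Leaving out any library other than knockout replicate 2 put it over the threshold, with adjusted p-values from 0.0577 to 0.166. Scaling the libraries to the cardiomyocyte markers ended all 3 tropomyosin calls, with log2 fold changes of 0.76 for TPM1 (limma adjusted p = 0.441), 0.21 for TPM2 (limma adjusted p = 0.588) and 0.57 for TPM4 (limma adjusted p = 0.108).

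TPM3, a tropomyosin of slow skeletal muscle and of non-muscle cells, had the tightest wild-type values of the 9 genes, at 4275, 4368 and 4306 normalized counts. The knockout values were 5884, 5734 and 6595, all above the wild type. The log2 fold change of 0.49 had an SE of 0.17 and did not pass (95% interval 0.10 to 0.87, limma adjusted p = 0.0995), and it was -0.08 when the libraries were scaled to the cardiomyocyte markers. TPM3 lies on chromosome 1 from 154155304 to 154194648. Near-identical pseudogene copies could share its reads: TPM3P9 had up to 484 reads in a library and the 8 other TPM3 and TPM4 copies listed at most 19, where TPM3 had at least 2830.

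Of tropomyosin counts not divided by length, TPM1 made up most in both genotypes, at 93.5% ± 0.9 in the wild type and 95.1% ± 0.6 in the knockout (SD, n = 3 each). By library the TPM1 share was 93.4%, 94.4% and 92.6% in the wild type and 95.7%, 94.6% and 94.9% in the knockout, so the genotypes did not overlap but nearly met. The TPM2 share was 2.60% ± 0.23 in the wild type and 1.80% ± 0.11 in the knockout. The TPM3 share was 1.14% ± 0.15 and 0.651% ± 0.134 in the same order, also without overlap. TPM4 kept no separation as a share, at 2.79% ± 0.55 and 2.46% ± 0.33, with overlapping libraries. Exact two-sided permutation tests gave p = 0.1 for the TPM1, TPM2 and TPM3 shares and p = 0.4 for the TPM4 share (0.12 and 0.4 after Benjamini-Hochberg adjustment over 6 shares). A p of 0.1 is the smallest that 3 against 3 libraries allow.

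The 2 troponin I genes had fitted changes of opposite sign, as did the 2 troponin T genes, and none of the 4 passed. TNNI1 had 190994, 300667 and 183044 normalized counts in the wild type and 215316, 132417 and 153410 in the knockout. The genotypes overlapped, wild-type replicate 2 stood above the rest, and the log2 fold change of -0.42 did not pass (SE 0.33, 95% interval -1.20 to 0.35, limma adjusted p = 0.472). Leaving out wild-type replicate 2 gave -0.19, and leaving out knockout replicate 1 gave -0.62; with quantile normalization it passed, at -0.83 (limma adjusted p = 0.0293). TNNI3 had 14509, 17675 and 12874 in the wild type and 37975, 19677 and 26329 in the knockout. All knockout libraries were above the wild type, the lowest by 1.11 times, yet the log2 fold change of 0.86 also did not pass (SE 0.28, 95% interval 0.21 to 1.51, limma adjusted p = 0.0879).

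As a share of troponin I counts, TNNI3/(TNNI1+TNNI3), the genotypes were separated. The share was 7.06%, 5.55% and 6.57% in the wild type and 15.0%, 12.9% and 14.6% in the knockout. The lowest knockout value thus stood well above the highest wild-type value. The means were 6.39% ± 0.77 and 14.2% ± 1.1 (SD, n = 3 each), a difference of 7.80 percentage points and a ratio of 2.22. An exact two-sided permutation test gave p = 0.1, the smallest possible (0.12 adjusted over 6 shares). The share does not depend on how libraries are scaled. Divided by the median length of each gene's coding transcripts, 1750 bases for TNNI1 and 754.5 for TNNI3, the share was 13.7% ± 1.5 and 27.7% ± 1.8, so TNNI1 remained the larger part of troponin I in both genotypes on either scale. TNNI1 transcripts in GENCODE 29 run from 580 to 6142 bases, which leaves the share per length uncertain.

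**Figure D2:**
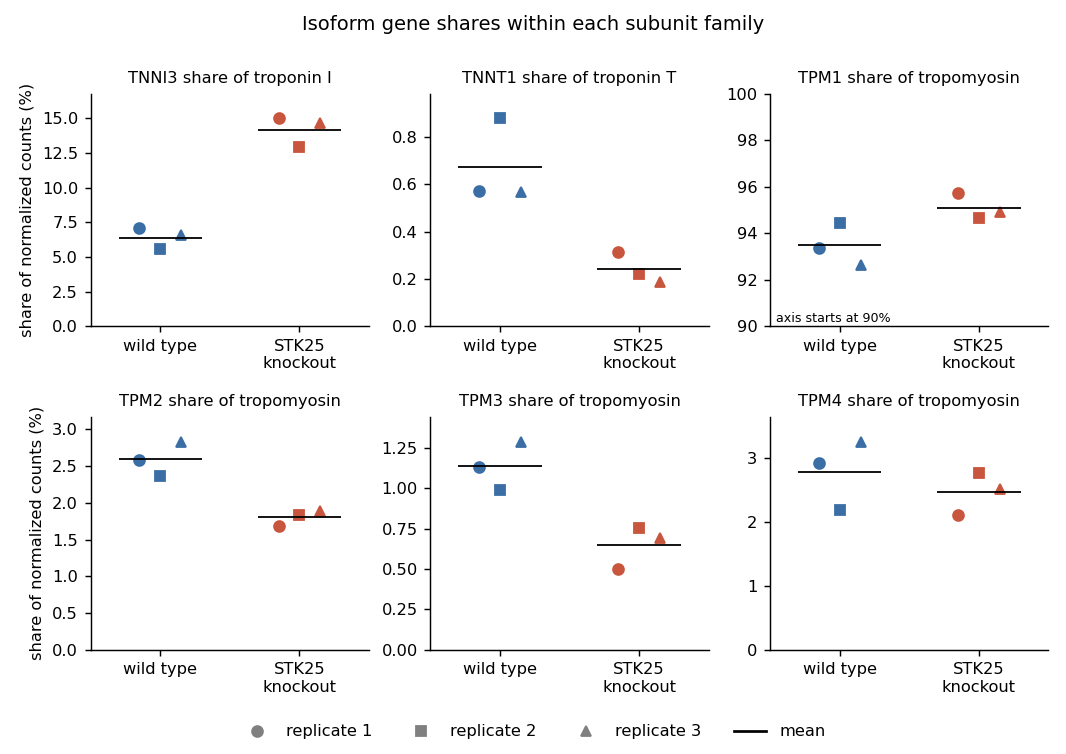
Share of each gene in the normalized counts of its subunit family (percent) for every library, wild type in blue and STK25 knockout in red, with a line at each mean; the TPM1 axis starts at 90% and the others at 0. The TNNI3 share lies between 5.55% and 7.06% in the wild type and between 12.9% and 15.0% in the knockout, and the TPM4 shares overlap.

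TNNT2 encodes cardiac troponin T, the form used to mark cardiomyocytes, and held most of the troponin T counts. TNNT2 had 231447, 270043 and 206999 normalized counts in the wild type and 359162, 226420 and 311981 in the knockout. The genotypes overlapped, and the log2 fold change of 0.32 (SE 0.31, 95% interval -0.40 to 1.05, limma adjusted p = 0.565) took the opposite sign with quantile normalization (-0.15) and with scaling to the cardiomyocyte markers (-0.25). TNNT1, the slow skeletal form, had 1329, 2389 and 1179 normalized counts in the wild type and 1124, 503 and 589 in the knockout. Wild-type replicate 2 and knockout replicate 1 were the highest of their genotypes, and the genotypes did not overlap. The TNNT1 log2 fold change of -1.16 had an SE of 0.38 and did not pass (95% interval -2.05 to -0.27, limma adjusted p = 0.0912). Without knockout replicate 1 it passed, at -1.51 with an adjusted p of 0.0253. It also passed in 3 of 13 other settings, among them equal totals (-1.44, limma adjusted p = 0.0264).

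The TNNT1 share of troponin T was 0.571%, 0.877% and 0.567% in the wild type and 0.312%, 0.222% and 0.189% in the knockout. All 3 knockout shares were lower than the wild-type shares (means 0.672% ± 0.178 and 0.241% ± 0.064, SD, n = 3 each; exact two-sided permutation p = 0.1, 0.12 adjusted over 6 shares).

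TNNC1 encodes the troponin C of heart and slow skeletal muscle and lies on chromosome 3 from 52451102 to 52454070. It had 46745, 76992 and 45172 normalized counts in the wild type and 195839, 77013 and 100607 in the knockout. The groups met at their edge, since knockout replicate 2 was 1.00 times wild-type replicate 2. The log2 fold change of 1.07, SE 0.40, did not pass (95% interval 0.15 to 2.00, limma adjusted p = 0.126). Without knockout replicate 1 the log2 fold change was 0.69 (limma adjusted p = 0.172).

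**Figure D3:**
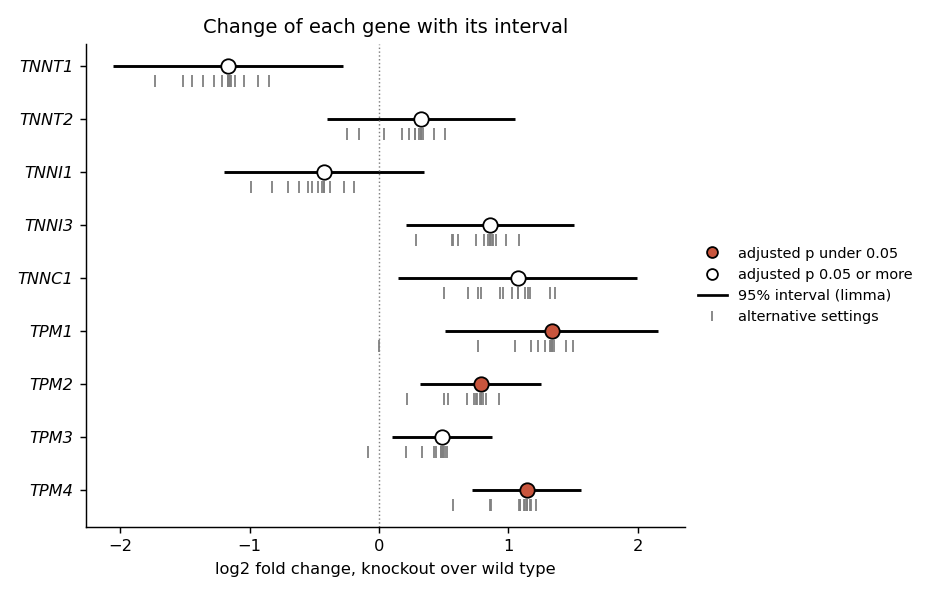
Log2 fold change (knockout over wild type) of each gene on the scale of log2(normalized count + 1), as a circle filled red where the adjusted p was under 0.05, with the 95% interval as a line and the alternative settings as grey ticks. TPM1, TPM2 and TPM4 are filled, the intervals of TNNT2 and TNNI1 span 0, and ticks of TNNT2 (quantile normalization and scaling to cardiomyocyte markers) and of TPM3 (scaling to cardiomyocyte markers) cross to the other side of 0.

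Most of the 9 genes ranked the replicates of a genotype alike. Wild-type replicate 2 had the highest wild-type value of 8 of the 9 genes, TPM4 being the exception. Knockout replicate 1 had the highest knockout value of 8, with TPM3 the exception, and knockout replicate 2 the lowest value of all 9. Within-genotype SDs of the log2 values were largest for TNNT1 (0.54 in the wild type, 0.61 in the knockout) and TNNC1 (0.43 and 0.69). They were smallest for TPM3 (0.02 and 0.11), followed by TPM2 in the wild type (0.07) and by TPM4 in the knockout (0.13). With both wild-type replicate 2 and knockout replicate 1 left out, a fit chosen after the values were seen, 8 of the 9 genes passed, 6 higher and TNNT1 and TNNI1 lower, but 30.6% of all genes then passed too.

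To set the levels of the genes side by side, normalized counts were divided by the length of the median coding transcript, in kilobases; the counts and shares above were not divided by length. In the wild type the order was TPM1 (326351 ± 48550, SD, n = 3), TNNT2 (216465 ± 29134), TNNI1 (128515 ± 37563), TNNC1 (78856 ± 25118), TNNI3 (19907 ± 3235), TPM2 (8346 ± 420), TPM4 (4250 ± 307), TPM3 (2437 ± 27) and TNNT1 (1664 ± 672). Of these neighbours, TNNI1 and TNNC1 overlapped in range, as did TPM3 and TNNT1. In the knockout TNNC1 (174351 ± 88108) stood above TNNI1 (95456 ± 24628), and the ranges of TNNT2, TNNC1 and TNNI1 each overlapped the next. TPM3 (3428 ± 260) and TNNT1 (753 ± 343) no longer overlapped there. Not divided by length, the knockout mean of TNNI1 (167048 normalized counts) was above that of TNNC1 (124486). Coding transcripts run from 580 to 6142 bases for TNNI1 and from 485 to 3957 for TPM1. The order per kilobase thus depends on the lengths taken.

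Summed per subunit on that scale, tropomyosin and troponin C were separated by genotype, and troponin T and troponin I were not. The tropomyosin genes summed to 335205, 392896 and 296050 normalized counts per kilobase in the wild type and to 1052726, 675328 and 846967 in the knockout. Troponin I summed to 148422 ± 40681 in the wild type and 132558 ± 36844 in the knockout (SD, n = 3 each), with overlap. Troponin T summed to 218129 ± 29781 and 274986 ± 61967 in the same order, also with overlap. The separation of troponin C rests on a pair of nearly equal values, 107832 in wild-type replicate 2 and 107861 in knockout replicate 2. The ratio of tropomyosin to all troponin was 0.823, 0.710 and 0.788 in the wild type and 1.35, 1.62 and 1.54 in the knockout. The ratio of troponin C to troponin I was 0.510, 0.552 and 0.520 in the wild type and 1.58, 1.06 and 1.15 in the knockout. These sums and ratios were chosen after the values were seen and are given without a test. Their levels depend on the transcript length taken for each gene.

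**Figure D4:**
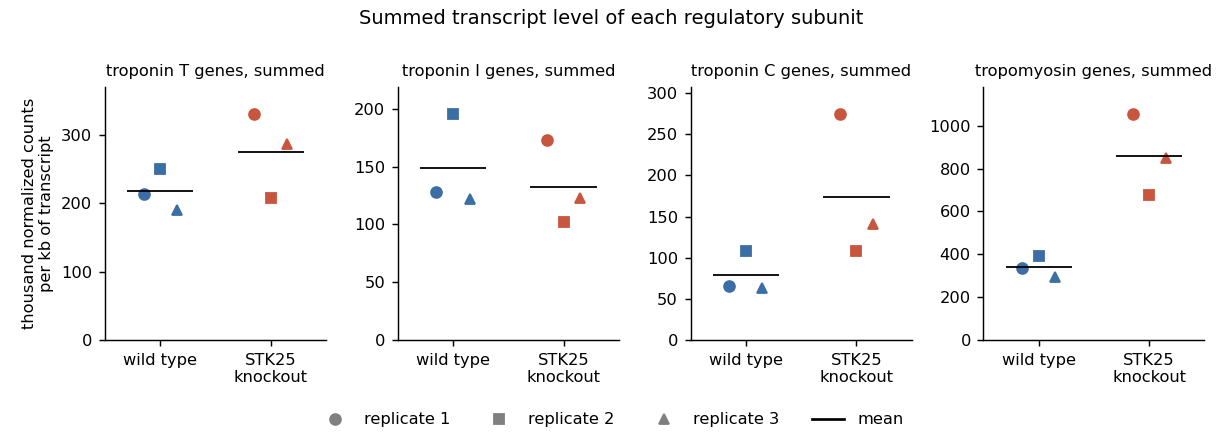
Summed level of the troponin T, troponin I, troponin C and tropomyosin genes in each library, in normalized counts per kilobase of transcript divided by 1000 on axes from 0, with a line at each mean. Tropomyosin is higher in all 3 knockout libraries than in any wild-type library, while troponin T and troponin I overlap.

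The troponin genes sit in pairs on the chromosomes, and their neighbours were read beside them. TNNT1 (chromosome 19, 55132794 to 55149354) lies next to TNNI3 (55151767 to 55157773), both on the minus strand, with fitted changes of opposite sign. Of the 5 nearest tested genes on each side of that pair, only DNAAF3, a gene for assembly of ciliary dynein arms, passed, with a log2 fold change of -1.64 (limma adjusted p = 0.0138). TNNT2 (chromosome 1, 201359008 to 201377762) and TNNI1 (201403768 to 201429866) form the other pair. Of their 10 neighbours 4 passed, against the background of 12.8%. These were CACNA1S, a skeletal muscle calcium channel subunit (log2 fold change 3.34, limma adjusted p = 0.0148), PHLDA3 (-1.59, limma adjusted p = 0.00176), CSRP1, a LIM protein of smooth muscle (-4.04, limma adjusted p = 0.000387), and NAV1 (-3.28, limma adjusted p = 0.000177). LAD1, which overlaps TNNT2 on the same strand, held 862 reads at most where TNNT2 held at least 153231. LAD1 reaches into the gap between the pair, is not among the 10 neighbours, and was itself lower (log2 fold change -1.59, limma adjusted p = 0.00792).

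Other thin filament genes showed no common direction, and 3 of 13 tested passed against the background of 12.8%. LMOD3, a leiomodin that nucleates actin (log2 fold change 2.50, limma adjusted p = 0.00156), and CAPZB, the beta subunit of the barbed-end cap (0.95, limma adjusted p = 0.0164), rose. ACTA1, skeletal alpha-actin, fell by 0.91 on the log2 scale (limma adjusted p = 0.0317). Cardiac actin ACTC1 had 647518 ± 14937 and 1354019 ± 92618 normalized counts in wild type and knockout (SD, n = 3 each) with a log2 fold change of 1.06 that did not pass (limma adjusted p = 0.0958). The median of the 13 was -0.0012. Among the 3 fast skeletal troponins 1 passed with limma, 0 with edgeR and 2 with DESeq2 (backgrounds 12.8%, 12.0% and 20.7%). TNNT3 passed with limma, at 61.1 ± 29.6 and 2.97 ± 5.15 normalized counts in wild type and knockout (limma adjusted p = 0.0226). It had few reads, at 30, 125 and 67 in the wild type and 0, 8 and 0 in the knockout. TNNI2 was at 38.2 ± 24.9 and 5.60 ± 5.37, and TNNC2 at 110.0 ± 51.5 and 148.2 ± 35.8.

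The lists that follow are read against the 12.8% of all genes that passed with limma. Passing were 1 of 10 thick filament genes and 1 of 14 kinases and phosphatases. So did 2 of 11 cardiac transcription factors and 2 of 9 non-muscle partners. The thick filament list had a median of 0.73, and MYL2, the ventricular regulatory light chain, passed, at -6.68 (limma adjusted p = 0.000281). Of 14 kinases and phosphatases that act on or bind troponin, TNNI3K, a cardiac kinase named for its binding to troponin I, rose from 321.9 ± 27.1 to 2471 ± 370 normalized counts (limma adjusted p = 0.000265), and the list median was 0.15. Of 11 cardiac transcription factors MEF2C rose by 1.14 (limma adjusted p = 0.0138) and NKX2-5 fell by 1.71 on the log2 scale (limma adjusted p = 0.00135), while SRF, whose protein binds CArG boxes, had a log2 fold change of 0.59 (limma adjusted p = 0.0955). Of 11 splicing regulators 0 passed with limma and 0 with edgeR, 1 with DESeq2, and 1 was at an unadjusted p under 0.05. The shares of all genes were 12.8%, 12.0%, 20.7% and 27.5% in that order. Of 9 non-muscle tropomyosin and actin partners ACTB, cytoplasmic beta-actin (1.77, limma adjusted p = 0.00960), and MYL12A, a non-muscle light chain (1.46, limma adjusted p = 0.00967), rose, and the list median was 0.75.

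**Figure D5:**
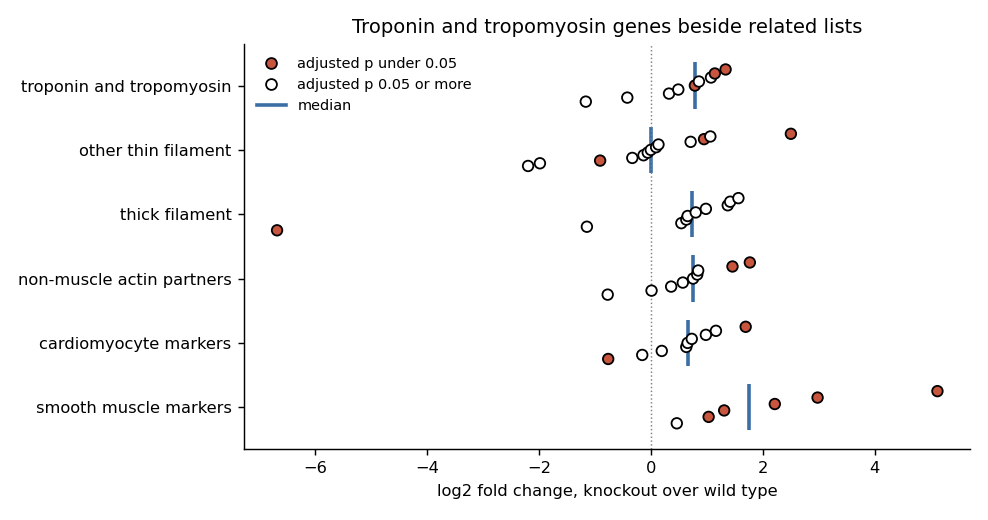
Log2 fold changes (knockout over wild type) of single tested genes in 6 lists, filled red where the adjusted p was under 0.05, with the list's median as a blue bar; MYBPC3, TTN and MYOM1 are in both the thick filament and the cardiomyocyte lists. The troponin and tropomyosin median of 0.79 lies near those of the non-muscle actin partners (0.75), the thick filament list (0.73) and the cardiomyocyte markers (0.66). The smooth muscle markers have the highest of the 6, at 1.76.

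Markers of smooth muscle, a tissue that also uses tropomyosin genes, were higher in the same libraries. Of 6 markers 5 passed, all higher (background 5.97% of all genes): ACTA2, TAGLN, MYH11, CNN1 and SMTN. Summed, the 6 were between 79420 and 89838 normalized counts in the wild type and between 491988 and 539659 in the knockout. ACTA2 made up most of that sum in both genotypes, at 49466 ± 3691 and 389103 ± 8357. MYH11, smooth muscle myosin, was at 254.0 ± 88.5 and 8493 ± 1163, while ACTG2, enteric smooth muscle actin, was low in both (17.6 ± 17.1 and 22.1 ± 15.0). The 9 cardiomyocyte markers summed to between 236985 and 292108 in the wild type and between 355995 and 425716 in the knockout, 1.48-fold higher by the mean of their geometric means, with CASQ2 passing as higher and PLN as lower. Other marker lists are read against the 12.8% of all genes that passed. Of 7 fibroblast markers 3 passed (COL3A1 and DCN higher, COL1A2 lower), of 5 epicardial markers 2 (TCF21 and ALDH1A2, higher), and of 5 epithelial markers 3 (KRT8 and KRT18 higher, KRT19 lower). Of 4 skeletal muscle markers tested 3 passed (CKM and MYH3 higher, MYH2 lower), and of 4 pluripotency markers 1 (TDGF1, higher). Of 3 endothelial markers tested 0 passed with limma, edgeR or DESeq2, and 0 had an unadjusted p under 0.05. The part of any marker list in the tropomyosin values was not tested. Relative to the geometric mean of the cardiomyocyte markers in the same library, TPM4 lay between -0.56 and -0.38 (log2) in wild-type libraries and between -0.15 and 0.36 in knockout libraries, without overlap, while TPM1, TPM2 and TPM3 overlapped between genotypes. On that scale TNNI1 and TNNT1 were lower in the knockout without overlap, by 0.99 and 1.73, and TNNT1 passed (limma adjusted p = 0.0288). The scaling moved all genes, however: their median log2 fold change was -0.56, and 26.5% of them passed, of which 11.4% were higher. How many of all genes did not overlap on that scale was not counted.

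The genes whose profile over the 6 libraries came nearest to TPM1 and TPM2 were found by the root mean square difference of centred log2 values. Nearest to TPM1 were SLC25A4, the heart ADP/ATP carrier (0.064), APOE (0.082) and BAG1 (0.093). Nearest to TPM2 were PHB (0.045), ATF4 (0.062) and SCAMP3 (0.063). Among the 9 genes themselves, TNNI3 and TPM2 lay closest (0.171) and TNNT1 and TPM1 farthest apart.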

How the data were processed

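The deposited table gives 1 value per gene symbol and library, a signal that the authors call normalized counts. The submitters' processing notes name bcl2fastq 2.19, kallisto 0.44.0, DESeq2 1.28.1 and GRCh38; their order and the annotation are not given in the sources used here. Per the labels' protocols, cDNA was made with a low-input Clontech kit before NexteraXT libraries. In every library 100% of values were whole multiples (within 1e-06) of 1 step, so reads were recovered. The step's origin is not stated, and such reads may be rounded estimates, which would divide reads of similar genes. Columns were matched by the names in the labels. No 2 replicates matched within sampling noise (reduced chi-square 20.0 to 391). p-values measure the spread between these libraries.

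Tests used limma 3.58.1 in R 4.3.3 on log2(value + 1), genes with a mean of at least 10, eBayes with a trend, and Benjamini-Hochberg adjustment at 0.05; such fold changes understate low genes. edgeR 4.0.16 and DESeq2 1.42.0 ran on the recovered reads. All 3 were also run on simulated data, with counts drawn independently for each gene and library. Replicates there do not shift many genes together as they do here, so that run is no check of the calls. Shares were compared by exact permutation (scipy 1.17.1). Positions and lengths are from GENCODE 29, sequences from RefSeq (GRCh38.p14). The genes and lists were chosen with earlier results of these data known. Named are all 9 genes, list members passing the test with up to 4 others, and the 3 nearest profiles of the genes that passed, of which those for TPM4 are not reported here. Alternatives were other pseudocounts, filters, scalings, eBayes settings, a replicate block, each library left out, and length or odds for shares.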

Additional observations from a re-analysis of the deposited data

How the results depend on the processing

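All 6 shares kept their direction under the 9 alternatives tried for each. Where the genotypes did not overlap (all shares but that of TPM4), leaving out a library or taking odds could not have reversed it. The TNNI3 difference ran from 7.38 to 8.43 percentage points when 1 library was left out. TPM4 passed in 11 of 13 other settings, TPM1 in 7 and TPM2 in 5. TPM1 had the third highest count in every library, so quantile normalization gave it a log2 fold change of 0 by its construction. TNNT2 turned to -0.15 with quantile normalization and -0.25 with cardiomyocyte marker scaling, which also put TPM3 at -0.081. The median of all genes moved to -0.27 with equal totals and -0.56 with marker scaling; each such scaling shifts every gene of a library alike. Calls were 46.8% higher, against 27.4% with equal totals and 11.4% with marker scaling.

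The number of the 9 genes passing, 3, became 1 with no filter, with equal upper quartiles and with marker scaling (TNNT1), 7 with DESeq2, and from 1 to 3 when 1 library was left out. It was 1 (TPM4) without wild-type replicate 1, 2 or 3 or knockout replicate 3. With equal totals it stayed 3, with TNNT1 in place of TPM2. All genes passing, 1982, became 4115 with marker scaling and 3210 with DESeq2, and ran from 792 (without wild-type replicate 1) to 2192 when 1 library was left out, with 911, 1270 and 963 without wild-type replicate 3, knockout replicate 2 and knockout replicate 3. Without both wild-type replicate 2 and knockout replicate 1, added after the data were seen, they were 8 and 4706.

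With the replicate number as a block, 0 of the 9 genes passed with limma (3 at an unadjusted p under 0.05) and 798 of all genes did, and STK25 was at an adjusted p of 0.0684. Deviations from the genotype mean had correlations of -0.23, -0.40 and 0.17 between same-numbered libraries, so the numbers were not taken as pairs. Between different-numbered libraries they ran from -0.35 (wild-type replicate 3 with knockout replicate 1) to 0.45 (wild-type replicate 2 with knockout replicate 1).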
